A study of Anas platyrhynchos x Cairina moschata with 205 samples.

Results

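Livers of mule duck embryos from the thermal manipulation (TM) group were compared between embryonic day 16 (E16) and embryonic day 12 (E12), with 8 livers at each stage, over every duck gene assayed with values in 6 or more of the 8 livers at both stages. These were 86 of the 91 duck genes on the panel, measured in 16 of the 205 livers of the series, all from the second of its 2 trials. The remaining 5 genes had too few values for this comparison. They were FABP4 (6 livers at E12 and 5 at E16), ChREBP and SCD1 (7 and 4 each), PPARG (4 and 7) and TLR4 (3 and 7).

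The mule duck is the hybrid of the common duck and the Muscovy duck (Anas platyrhynchos x Cairina moschata), bred for fatty liver. In the TM group the incubation temperature was raised for part of each day from E13 until some days before hatching, and the control group stayed at the constant temperature. By the study's timeline the E12 livers were therefore taken before any heating, although their labels also place them 1 h after an increase, and the E16 livers were taken 1 h after the daily increase, following 3 days of it. Development over these 4 days and the heating cannot be told apart among TM livers, and only the control livers of the same stages (8 at E12, 5 at E16) bear on the difference. Each group had a single incubator, and each liver came from another embryo, and the p-values thus rest on how embryos of 1 incubator varied. The whole liver was used, so fewer cells of a type and less RNA per cell cannot be told apart.

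The avian embryo lives on yolk lipid, which its liver takes up, oxidises and packs into lipoproteins, and the genes that make fat from carbohydrate are known to be held low in the embryo. Thyroid hormone governs much of late development in birds, with its level set by deiodinases that activate or inactivate it. Heat is sensed by heat shock factors, which switch on chaperones, and chromatin enzymes set which genes of a cell stay open or silent. The panel covers these systems.

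Expression was measured by quantitative PCR and is given as the log2 of the relative expression ratio, on which a difference of 1 corresponds to 1 PCR cycle or a doubling. A ratio of a gene in a liver was set against 4 reference assays in that liver (HPRT1, an enzyme of purine salvage, luciferase RNA added to the reaction, STAB1, a scavenger receptor known from sinusoidal endothelium, and USP9X, a deubiquitinase) and against the average of that gene over the trial. The zero of the scale is thus specific to each gene, and levels were not compared between genes. Each of the 16 livers had between 60 and 90 duck genes with a ratio and a median Ct (the PCR cycle of detection, lower where there is more template) between 17.7 and 19.5. Hepatocyte markers were detected in all 16 livers, with albumin (ALB) at 6.30 to 9.05 cycles and apolipoprotein B (APOB) at 10.7 to 13.1, beside STAB1 at 17.7 to 20.4 and HGF, a growth factor of mesenchymal cells, at 18.5 to 22.7. For the STAB1 assay the gene name given with the data is that of Stabilin 2.

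Replicates 2 and 8 of the E12 group stood apart. Luciferase, of which the same amount is added to every sample, had a Ct of 27.8 and 28.9 in them and of 20.0 to 24.2 in the other 14 TM livers. Their mean log2 ratio over the 37 genes present in all 16 livers was 1.43 and 1.48, against −0.26 to 0.66 in the others. In replicate 2 the authors left blank 13 values that had a Ct, and in replicate 8 they left blank 30. Had they been kept, all 13 and all 30 would have been the highest of their stage, and of the values kept, 38 of 74 and 34 of 60 were the highest among E12 TM livers. At E16, replicate 5 had 16 such blanks, all of which would have been the highest of that stage, with a luciferase Ct of 24.0. Differences are therefore given also without E12 replicates 2 and 8, from here on called the late livers.

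**Figure D1:**
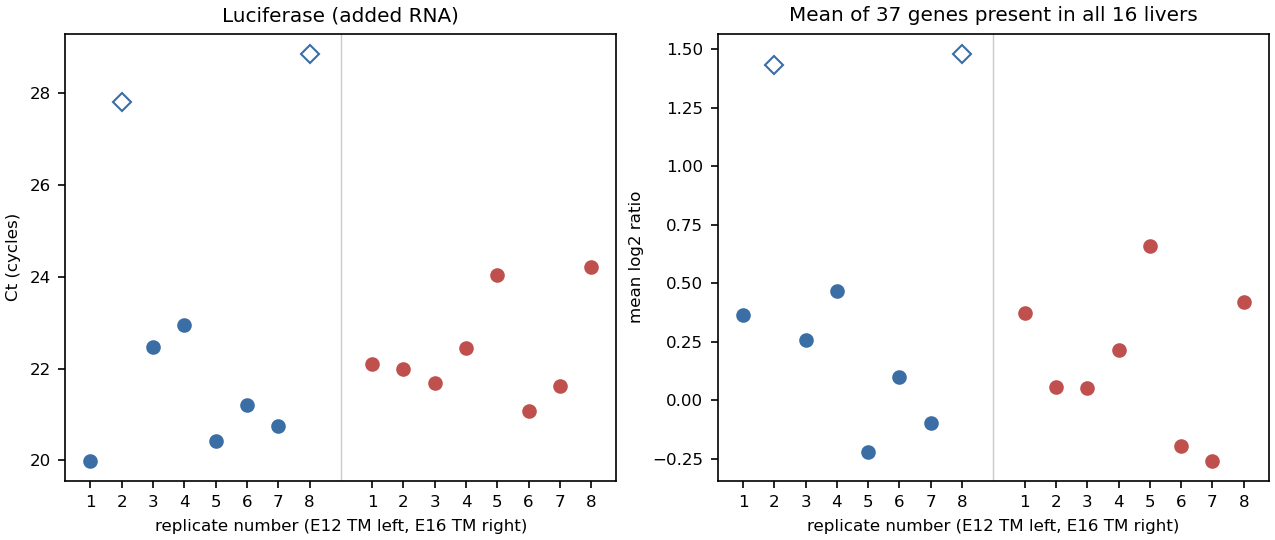
Luciferase Ct in cycles (left) and the mean log2 ratio of the 37 genes present in all 16 livers (right), per TM liver, with E12 in blue and E16 in red and the replicate number on the x axis. E12 replicates 2 and 8 (open diamonds) lie above the other 14 livers in both measures, at 27.8 and 28.9 cycles and at 1.43 and 1.48.

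Among the 4 reference assays and ACTB, the cytoskeletal actin, USP9X was the 1 past the correction. It was detected at 16.7 ± 0.492 cycles (SD, n = 8) at E12 and 17.4 ± 0.544 (n = 8) at E16, which passed the exact two-sided permutation test after the Benjamini-Hochberg correction over 5 assays (adjusted p = 0.0482, and 0.0233 without replicates 2 and 8). HPRT1 had 20.6 ± 0.591 and 21.4 ± 0.791 cycles (adjusted p = 0.0699, exact permutation test). ACTB, STAB1 and luciferase had adjusted p of 0.463, 0.611 and 0.611 in the same test. Without replicates 2 and 8 all 5 assays were later at E16, by 0.368 cycles (ACTB) to 1.11 (luciferase). Except for USP9X, their adjusted p in that test was then 0.0824 (STAB1) to 0.169 (ACTB). The geometric mean Ct of HPRT1, STAB1 and USP9X was later at E16 by 0.594 cycles (exact permutation p = 0.0213). It was later by 0.772 without those livers (exact permutation p = 0.00366). Over the panel, the median Ct per liver was 18.6 ± 0.470 cycles at E12 and 19.1 ± 0.268 at E16 (difference 0.543, exact permutation p = 0.00995), and the mean log2 ratio over the 37 genes differed by −0.31 (p = 0.265, exact permutation test), or by 0.02 without replicates 2 and 8 (p = 0.897).

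HNF4, a nuclear receptor that maintains the hepatocyte programme, was lower at E16 than at E12 in TM livers and was the only gene called. In E12 livers its log2 ratio ran from −0.09 through a median of 0.74 to 1.26, and in E16 livers from −1.31 through −0.49 to −0.12. On this scale every E16 liver lay below every E12 liver. The means were 0.61 ± 0.48 (SD, n = 8) and −0.57 ± 0.43 (n = 8), a difference of −1.18 (SE 0.27, 95% interval −1.73 to −0.62), so that the level at E16 was 0.442 of that at E12. HNF4 was the 1 gene of 86 past an adjusted p of 0.05 in limma (1.16% of the genes tested, adjusted p = 0.0206), and the 1 gene of 86 whose stages did not overlap (1.16%), with an exact permutation p of 0.000155, the smallest that 8 livers against 8 allow.

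The 2 highest E12 values of HNF4 were those of replicates 2 and 8. Without them its mean at E12 was 0.43 ± 0.41 (n = 6) and the difference −1.003 (SE 0.25), the stages still did not overlap, and the limma call was lost, with an adjusted p of 0.0770 and no gene of 87 called (0.0% of those tested, and 8 at an unadjusted p under 0.05). Over the same livers the exact permutation test gave HNF4 an adjusted p of 0.0286. The lowest E16 value, −1.31, was that of replicate 5, and without that liver the difference was −1.07 (limma adjusted p = 0.0526). The call was also lost with the 3 endogenous reference genes (−0.93, adjusted p = 0.0834), with each liver centred on the panel mean (−0.87, adjusted p = 0.0928), with every Ct kept (−1.18, adjusted p = 0.0505), with luciferase as the only reference (−2.18, adjusted p = 0.498), and in 6 of the 16 limma fits that left out 1 liver. HNF4 was lower at E16 in each of these. With each liver centred on the panel mean the stages overlapped. E12 replicates 2 and 8 then had −0.18 and −0.46, and the highest E16 liver had −0.15. In that scaling another gene had the smallest limma adjusted p, 0.0625, and none was called.

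HNF4 is known to drive genes of the mature hepatocyte, and 4 such genes of the panel gave no call. ALB, the main plasma protein made by the liver, had 0.16 ± 0.60 (n = 7) at E12 and 0.57 ± 0.68 (n = 8) at E16 (limma adjusted p = 0.472). APOB, the scaffold of very low density lipoprotein, had 0.35 ± 0.43 and 0.49 ± 0.51 (adjusted p = 0.768, limma). LIPC, the hepatic lipase, had 0.85 ± 0.63 and 0.43 ± 0.33 (limma adjusted p = 0.472). The assay labelled CYP2C, whose gene name in the data is that of another cytochrome P450, CYP2E1, had −0.30 ± 0.66 and −0.09 ± 0.64 (adjusted p = 0.667, limma). In ALB, APOB and CYP2C the mean at E16 was above that at E12, the opposite side to HNF4. The differences without the late livers were 0.53 for ALB, 0.27 for APOB, −0.11 for LIPC and 0.22 for CYP2C.

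Over all 86 genes the differences were small against their errors. Their SE ran from 0.26 to 1.13 with a median of 0.34, and for 33 genes the 95% interval lay within −1 to 1. In 59 genes the mean was lower at E16 and in 27 it was higher, with a median difference of −0.32. Without replicates 2 and 8 the median over 87 genes was 0.01, with 43 lower and 44 higher. The excess of lower values was thus present with those livers and absent without them. With HPRT1, STAB1 and USP9X as the only references, a setting that also put back the values left blank by the authors, the median was −0.06. With the panel mean of every liver set to zero it was −0.02, but that centring itself draws the median towards zero.

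**Figure D2:**
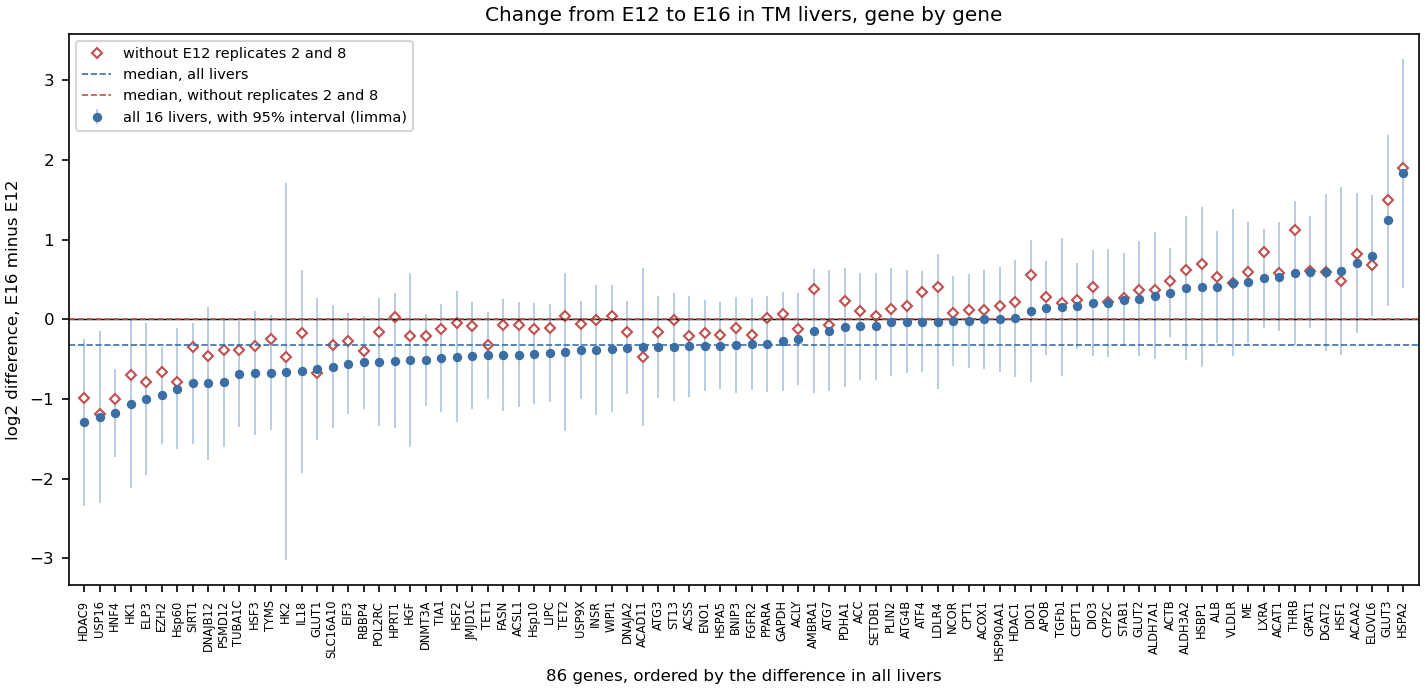
Difference in mean log2 ratio, E16 minus E12, for each of the 86 genes in TM livers, in all 16 livers (blue points with the 95% interval from limma) and without E12 replicates 2 and 8 (open red diamonds). The dashed lines are the medians, −0.32 in all livers and 0.00 over the same 86 genes without the 2 livers, and the diamonds lie above the points for most of the genes on the left.

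At an unadjusted p under 0.05, limma gave 12 of the 86 genes (14.0%), of which 9 were lower at E16 (10.5%) and 3 higher (3.49%). Except for HNF4, none passed the correction, with adjusted p from 0.170 to 0.357. Without replicates 2 and 8 there were 8 of 87 (9.2%), 2 lower (2.3%) and 6 higher (6.9%). PPARG, tested only in that fit with 4 livers at E12 and 7 at E16, was 1 of the 6. The lists shared 4 genes, HNF4, EZH2, GLUT3 and HSPA2, which are 4 of the first 12 and 4 of the other 8. With all 16 livers centred on the panel mean, limma gave 14 of 86 (16.3%), of which 11 were higher and 3 lower. Of these 14, 6 were among the first 12, so the direction of such a list moved with the scaling too. Of the 9 genes lower at E16 in the first list, 8 had their highest E12 value in replicate 2 or 8. In 4 of them those livers gave the 2 highest values, a share not counted over the panel. None of the 3 genes higher at E16 had its highest E12 value there. Over the 91 duck genes assayed, replicate 2 held the highest E12 value of 38 and replicate 8 that of 34. Such a position was thus common over the panel. The exact permutation test gave 8 of the 86 genes an unadjusted p under 0.05 (9.3%).

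Of the list of 10 chromatin genes, none was called by limma, and 9 had a lower mean at E16, 4 of them at an unadjusted p under 0.05, beside 59 and 9 of all 86 genes. Without the late livers 7 were lower and 3 higher, and EZH2 was the 1 gene of the list at an unadjusted p under 0.05. The median difference of the list was −0.53, beside −0.32 for all genes tested, and −0.34 beside 0.00 without replicates 2 and 8. EZH2, the methyltransferase of the polycomb repressive complex, had the smallest adjusted p after HNF4 with all livers, though LXRA and THRB had smaller ones without the late livers. It ran from 0.64 through a median of 1.5 to 2.54 at E12 and from 0.09 through 0.59 to 1.10 at E16. In 4 of 7 E16 livers it lay below every E12 liver, and the other 3 overlapped. The means were 1.58 ± 0.62 (n = 8) and 0.63 ± 0.32 (n = 7), a difference of −0.95 (SE 0.29, limma adjusted p = 0.170), which was −0.67 (SE 0.23, adjusted p = 0.232) without replicates 2 and 8.

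USP16, which removes ubiquitin from histone H2A, ran from 0.44 to 0.84 in the 6 E12 livers with a value and from −3.23 through a median of −0.44 to 1.20 in 8 at E16. The narrow range at E12 rests on blanks. The authors had left out the values of E12 replicates 7 and 8, which would have been the lowest and the highest of that stage. Of the E16 livers 6 lay below every E12 value kept and 1 above, and the difference of the means was −1.23 (SE 0.52, limma adjusted p = 0.348), or −1.19 without the late livers. ELP3, the acetyltransferase of the elongator complex, had 0.81 ± 0.70 and −0.19 ± 1.26 (n = 8 each), a difference of −1.001 (SE 0.46), or −0.79 without the late livers. Its 2 lowest E16 livers, at −2.38 and −1.71, lay far below the other 6, which ran from −0.46 to 1.30. SIRT1, a deacetylase that responds to the energy state, had 0.75 ± 0.99 at E12, where replicates 2 and 8 gave 2.08 and 2.17 and the other 6 livers −0.26 to 1.26, and −0.06 ± 0.42 at E16. Its difference of −0.81 (SE 0.36) became −0.34 (SE 0.27) without those 2 livers. HDAC9, a histone deacetylase, stood outside the lists and is named after its values were seen, as is SIRT1. HDAC9 had the lowest difference of the panel with all livers, −1.29 (SE 0.50, limma adjusted p = 0.348), from 1.07 ± 1.14 (n = 6) to −0.23 ± 0.90 (n = 7). E12 replicate 6 had no Ct for HDAC9, so that liver is not in the E12 mean. Its highest E12 value, 2.6, was that of replicate 8, and without the late livers its difference was −0.99, with USP16 and HNF4 lower. The remaining 6 chromatin genes differed by −0.54 (RBBP4, a histone chaperone) to 0.02 (HDAC1), or −0.40 and 0.22 for these genes without the late livers.

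Growth and housekeeping genes lay on the same side. All 5 had a lower mean at E16, with differences of −0.68 to −0.31 and a median of −0.54, or −0.21 without replicates 2 and 8. TUBA1C, an alpha tubulin, had 1.04 ± 0.62 and 0.36 ± 0.64 (n = 8 each, difference −0.68, SE 0.32), and −0.39 (SE 0.29) was left without those livers. TYMS, the enzyme that makes thymidylate for DNA synthesis, had 1.68 ± 0.87 and 1.01 ± 0.49, with its highest E12 value of 3.15 in replicate 8. POL2RC, a subunit of RNA polymerase II, had 0.59 ± 0.91 and 0.05 ± 0.72. None was called (limma adjusted p of 0.349 for TUBA1C, 0.386 for TYMS and 0.472 for POL2RC). The differences of TYMS and POL2RC, −0.67 and −0.54, were −0.25 and −0.15 without the late livers.

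**Figure D3:**
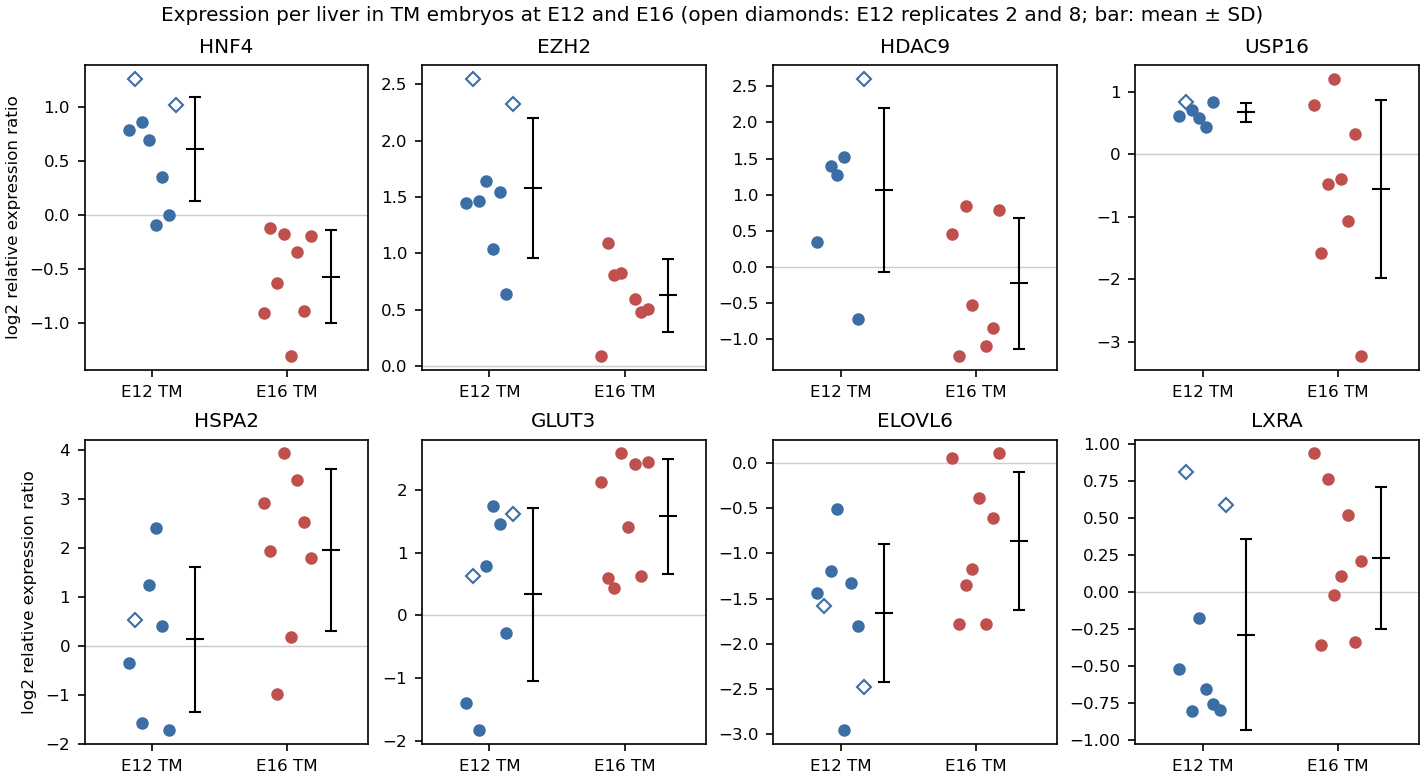
Log2 relative expression ratio per TM liver at E12 (blue) and E16 (red) for 8 genes, with the mean ± SD beside each stage and E12 replicates 2 and 8 as open diamonds. HNF4 is the one gene shown whose stages do not overlap. USP16 runs from 0.44 to 0.84 at E12, where the values of replicates 7 and 8 had been left blank, and from −3.23 to 1.20 at E16.

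HSPA2, a member of the Hsp70 chaperone family, had the highest difference of the panel. At E12 it ran from −1.73 through a median of 0.41 to 2.39 in 7 livers and at E16 from −0.99 through 2.23 to 3.93 in 8. In 4 of the 8 E16 livers it lay above every E12 liver, and the other 4, from −0.99 to 1.92, lay within the E12 range. The means were 0.13 ± 1.48 and 1.96 ± 1.65, a difference of 1.83 (SE 0.69, 95% interval 0.39 to 3.27), with a limma adjusted p of 0.348. It was 1.90 (SE 0.77) without replicates 2 and 8, of which only replicate 2 had a value.

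The other 7 chaperones and co-chaperones had differences of −0.87 to 0.00. HSP90AA1, the cytosolic Hsp90, differed by 0.00 (SE 0.32), and HSPA5, the Hsp70 of the endoplasmic reticulum, by −0.33 (SE 0.26). Hsp60, the mitochondrial chaperonin, ran from 1.34 through 1.97 to 2.65 at E12 (n = 7) and from 0.07 through 1.26 to 2.25 at E16 (n = 8). In 5 of the 8 E16 livers it lay below every E12 liver, and the difference was −0.87 (SE 0.36, limma adjusted p = 0.348). Hsp10, its co-chaperonin, differed by −0.43 (SE 0.30). DNAJB12, a membrane co-chaperone of the endoplasmic reticulum, had 0.60 ± 0.85 and −0.21 ± 1.18 (adjusted p = 0.396, limma). Of the list of 8, none was called, 6 were lower and 2 higher, and the median was −0.35. The median was −0.14 without the late livers, with differences of −0.78 for Hsp60, −0.46 for DNAJB12, −0.12 for Hsp10, −0.20 for HSPA5 and 0.16 for HSP90AA1.

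The heat shock factors gave no call in limma. HSF1, the main sensor of heat in vertebrates, had −0.06 ± 0.86 (n = 6) at E12 and 0.54 ± 1.14 (n = 7) at E16. HSF2, a factor of development, had 1.12 ± 1.08 and 0.65 ± 0.49, and HSF3, a factor that birds use in heat shock, 0.81 ± 0.76 and 0.14 ± 0.82 (n = 8 each). Of the 4 genes with HSBP1, a binding protein that restrains HSF1, 2 were lower and 2 higher, with a median of −0.03, or 0.22 without the late livers. The differences were 0.60 for HSF1, −0.47 for HSF2 and −0.68 for HSF3, and 0.48, −0.04 and −0.33 without those livers.

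The 6 autophagy genes all had a lower mean at E16, with differences from −0.37 to −0.03, none of them at an unadjusted p under 0.05. Without replicates 2 and 8, 3 were lower and 3 higher. WIPI1, a protein of autophagosome formation, had 0.66 ± 0.89 and 0.29 ± 0.73, and its difference of −0.37 became 0.04. ATG3, an enzyme of lipid conjugation to the autophagosome, had 0.53 ± 0.59 and 0.18 ± 0.41, and BNIP3, a receptor of mitophagy, 0.51 ± 0.48 and 0.19 ± 0.57. Their differences of −0.35 and −0.33 were −0.16 and −0.11 without the late livers. Among the 5 other stress and cytokine genes, 4 were lower and 1 higher, with none called. PSMD12, a subunit of the proteasome lid, had 0.97 ± 0.82 and 0.18 ± 0.83 (limma adjusted p = 0.357). IL18, an inflammatory cytokine, had −0.17 ± 1.67 and −0.83 ± 0.90, and TIA1, a protein of stress granules, 0.53 ± 0.81 and 0.04 ± 0.23. Without the late livers 3 were lower and 2 higher, and the differences of PSMD12 (−0.79), IL18 (−0.65) and TIA1 (−0.48) were −0.38, −0.17 and −0.13.

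GLUT3, a glucose transporter of high affinity, was the other gene at the upper end of the panel. At E12 it ran from −1.84 through a median of 0.70 to 1.74 and at E16 from 0.44 through 1.77 to 2.59. The E12 livers were split, with 3 of the 8 below zero, and 4 of the 8 E16 livers lay above every E12 liver. The means were 0.34 ± 1.38 and 1.58 ± 0.92 (n = 8 each), a difference of 1.24 (SE 0.52, limma adjusted p = 0.348), and 1.503 (SE 0.57, adjusted p = 0.324) without replicates 2 and 8. The transporters GLUT1, of basal uptake, and GLUT2, of the hepatocyte, differed by −0.62 (SE 0.42) and 0.26 (SE 0.35), or −0.67 and 0.37 without the late livers.

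All 5 genes of glycolysis and pyruvate oxidation had a lower mean at E16, with differences from −1.06 to −0.10, and none was called. Without the late livers 3 were lower and 2 higher, and likewise with the livers centred on the panel mean. HK1, the hexokinase of most tissues, had 0.45 ± 0.90 (n = 8) and −0.61 ± 1.31 (n = 7), with 4 of 7 E16 livers below every E12 liver. Its difference of −1.06 (SE 0.51, limma adjusted p = 0.357) became −0.70 (SE 0.53) without replicates 2 and 8. HK2, the insulin-sensitive hexokinase, had 0.25 ± 1.03 (n = 6) and −0.41 ± 3.26 (n = 8), where E16 replicate 7 had −7.83 and the other 7 livers −1.40 to 2.34. Without that liver its difference was 0.40. ENO1, an enolase, differed by −0.33 (SE 0.27), or −0.18 without the late livers.

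No gene of fatty acid synthesis was called. ELOVL6, which extends palmitate, ran from −2.96 through a median of −1.51 to −0.51 at E12 and from −1.78 through −0.89 to 0.11 at E16. In 3 of the 8 E16 livers it lay above every E12 liver, and the rest overlapped. The difference was 0.80 (SE 0.37, limma adjusted p = 0.348), or 0.68 (SE 0.39, adjusted p = 0.526) without replicates 2 and 8. Differences were −0.45 (SE 0.34) for FASN, the fatty acid synthase, −0.25 (SE 0.27) for ACLY, which makes cytosolic acetyl-CoA, and −0.09 (SE 0.32) for ACC, the carboxylase of the committed step. ME, the malic enzyme that supplies NADPH, differed by 0.46 (SE 0.36) and ACSS, which activates acetate, by −0.34 (SE 0.31). Leaving out the late livers gave differences of −0.07 for FASN, −0.12 for ACLY, 0.10 for ACC, 0.59 for ME and −0.21 for ACSS. Of the 6 members tested 4 were lower and 2 higher, and 3 and 3 without those livers.

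The glycerolipid genes leaned the other way, with 3 of 4 higher at E16 and a median of 0.38, and none was called. GPAT1, which starts the assembly of triglyceride, had 0.13 ± 0.71 (n = 7) and 0.73 ± 0.57 (n = 8), a difference of 0.59 (SE 0.34, limma adjusted p = 0.396). DGAT2, which completes it, had −1.25 ± 1.14 (n = 6) and −0.66 ± 0.74 (n = 7). CEPT1, an enzyme of phospholipid synthesis, differed by 0.17 (SE 0.26). Without the late livers all 4 were higher, with a median of 0.42, and the differences were 0.60 for GPAT1, 0.59 for DGAT2 and 0.25 for CEPT1. In the 8 genes of fatty acid activation and oxidation, 4 genes had a higher mean and 4 a lower one, none of them called, while leaving out the late livers gave 6 and 2. ACAA2, the last enzyme of mitochondrial beta-oxidation, had −0.39 ± 0.83 and 0.32 ± 0.86 (n = 7 each, difference 0.71, SE 0.42). ACAT1, which condenses acetyl-CoA towards ketone bodies, had 1.12 ± 0.56 and 1.65 ± 0.66, while ACSL1, which activates long-chain fatty acids, had 0.61 ± 0.75 and 0.17 ± 0.45. ACAA2 differed by 0.82, ACAT1 by 0.58 and ACSL1 by −0.08 without the late livers. VLDLR, a receptor for yolk-type lipoprotein, had 0.03 ± 0.52 (n = 6) and 0.49 ± 1.07 (n = 7), with no value in either late liver.

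Among the nuclear receptors, LXRA, which responds to oxysterols and drives lipogenic genes, moved with the late-luciferase livers and with the scaling. At E12 it ran from −0.80 through a median of −0.59 to 0.81 and at E16 from −0.35 through 0.16 to 0.94. Replicates 2 and 8 gave the 2 highest E12 values, 0.81 and 0.59, and the other 6 lay between −0.80 and −0.17. The difference was 0.51 (SE 0.30, limma adjusted p = 0.396) with all livers and 0.84 (SE 0.24, adjusted p = 0.113) without those 2, where the unadjusted p was 0.00259. Centred on the panel mean with all livers kept, LXRA ran from −1.06 to −0.43 at E12 and from −0.55 to 0.71 at E16. It was then at an unadjusted p under 0.05 in limma, as it was with the 3 endogenous reference genes. PPARA, the receptor that drives fatty acid oxidation, differed by −0.31 (SE 0.29) and by 0.01 without the late livers. INSR, the insulin receptor, differed by −0.38 (SE 0.39) and −0.01.

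The thyroid hormone genes gave no call. THRB, the thyroid hormone receptor beta, had −0.02 ± 1.17 and 0.56 ± 0.66 (n = 8 each, limma adjusted p = 0.472). At E12 replicates 2 and 8 gave 1.22 and 1.94 and the other 6 livers −1.46 to 0.57, and without them the difference of 0.58 (SE 0.43) was 1.12 (SE 0.35, adjusted p = 0.153). DIO1, which activates and clears the hormone, had −0.56 ± 0.96 and −0.46 ± 0.91, a difference of 0.11 (SE 0.43). DIO3, which inactivates it, had 1.63 ± 0.76 and 1.83 ± 0.21 (n = 7 each), a difference of 0.21 (SE 0.32). Its E16 livers lay between 1.56 and 2.11 and its E12 livers between 0.37 and 2.78. SLC16A10, a transporter of the hormone and of aromatic amino acids, differed by −0.60 (SE 0.37), JMJD1C, a cofactor of the receptor, by −0.46 (SE 0.32) and NCOR, its corepressor, by −0.02 (SE 0.27). Of the 6 genes 3 were lower and 3 higher. Without the late livers 2 were lower and 4 higher, with differences of 0.56 for DIO1, 0.40 for DIO3, −0.33 for SLC16A10, −0.08 for JMJD1C and 0.08 for NCOR.

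The change from E12 to E16 was then set against the same change in control livers, for 84 genes in one limma fit. No gene passed the adjusted p for the difference between the changes (0.0% of 84, smallest adjusted p = 0.239), and 9 had an unadjusted p under 0.05 (10.7%), all with the more positive change in TM livers. The median change was −0.33 in TM and −0.55 in control livers. Without the late livers 21 genes had such a p, all positive, with a median change of −0.01 in TM livers, and none was called (smallest adjusted p = 0.109). With the livers centred on the panel mean there were 15, of which 9 were positive and the rest negative, the median difference was 0.0045, and none was called (smallest adjusted p = 0.220). That centring itself draws the median difference towards zero. With the 3 endogenous reference genes, and the values left blank by the authors put back, there were 22, of which 21 were positive, and NCOR was called. Leaving out replicate 7 of the E16 control group gave 8, all positive. The number of these genes thus moved with the scaling, and their direction did so mainly with the panel mean. Here that mean was over 61 genes rather than 37, each liver counting those it had. The E16 control group is small, with 5 livers. Its replicate 7 had 21 duck genes with a ratio and luciferase as its only reference assay. ALB was detected there at 23.7 cycles against 7.00 to 9.94 in the other 12 control livers. The panel mean of that liver counted log2 ratios of −12.6 for ALB and −5.56 for CPT1. With the centring, the control changes of ATG4B and DNAJB12 went from 0.23 and 0.44 to 1.02 and 1.19. Both were among the negative genes. The other negative genes, HPRT1, SIRT1, EZH2 and HNF4, had no value in that liver.

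For HNF4, control livers had 0.14 ± 0.84 (n = 8) at E12 and −0.36 ± 0.48 (n = 4) at E16. The change was −0.51 (SE 0.37) in control livers beside −1.18 in TM livers, and the difference between them was −0.67 (SE 0.48, limma adjusted p = 0.556), so that a change of HNF4 particular to the TM group was not shown. It was −0.50 (SE 0.48) without the late livers. For HSPA2 the changes were 1.83 in TM and 1.05 in control livers (difference 0.78, SE 1.40), for EZH2 −0.95 and −0.29 (difference −0.67, SE 0.47), and for GLUT3 1.24 and −0.30 (difference 1.54, SE 0.89, limma adjusted p = 0.507). These differences were 0.85, −0.38 and 1.80 without the late livers.

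The 3 genes with the smallest p for this difference had lower means at E16 in control livers, with TM differences of −0.02 to 0.39. CPT1, the gate of fatty acids into mitochondria, differed by −0.02 in TM livers (1.38 ± 0.49 to 1.35 ± 0.47) and by −2.70 in control livers, a difference of 2.68 (SE 0.86, limma adjusted p = 0.239). Without control replicate 7 the control change was −1.33 and the difference 1.31 (SE 0.49, adjusted p = 0.377). NCOR had −0.02 and −1.12 (difference 1.10, SE 0.38, adjusted p = 0.239). ALDH3A2, which oxidises fatty aldehydes, had 0.39 and −1.54 (difference 1.93, SE 0.68, adjusted p = 0.239). Its mean at E12, before any heating, was −0.20 ± 0.99 (n = 7) in TM and 1.15 ± 0.93 (n = 8) in control livers, a difference not tested, and the means at E16 were 0.19 ± 0.74 (n = 7) and −0.39 ± 0.63 (n = 4). Leaving out the late livers gave 2.81 for CPT1, 1.20 for NCOR and 2.15 for ALDH3A2 (limma adjusted p = 0.109 each). With the 3 endogenous reference genes only, control replicate 7 has no value and the values left blank by the authors were put back. NCOR passed in that fit (difference 1.34, SE 0.31, adjusted p = 0.0148, limma), and it was the only gene of 83 to do so. Which of these changes mattered was not tested.

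**Figure D4:**
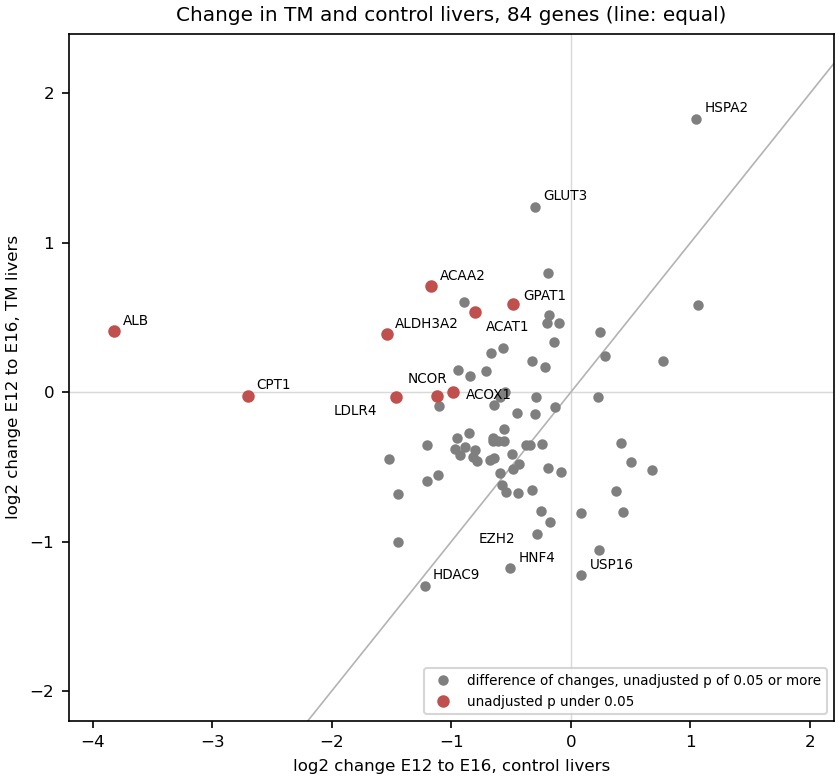
Change in mean log2 ratio from E12 to E16 in control livers (x axis) and TM livers (y axis) for 84 genes, with the diagonal marking equal change and the 9 genes at an unadjusted p under 0.05 for the difference in red. All 9 lie above the diagonal, and ALB (−3.82 in control livers), CPT1 (−2.70) and LDLR4 (−1.46) include control replicate 7.

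Set against the later stages of the same TM group, given here as means with no test, E16 was the low point of HNF4 and the high point of GLUT3 and HSPA2. These genes were picked for their differences at E16 in the same livers, so an extreme there is partly built into the choice. HNF4 had a mean of −0.57 at E16, the lowest of the 6 stages, and ran through −0.27 at E20, 0.04 at E24 and −0.17 at E28 to 0.39 at E30. GLUT3 and HSPA2 had their highest means at E16, 1.58 and 1.96, and were at 0.02 and 0.05 at E20. EZH2 went from 1.58 at E12 and 0.63 at E16 to −0.65 at E20, where 1 liver had −7.56 and the median was 0.47, and −1.02 at E30. Means of FASN, ELOVL6 and DIO3 at E12 and E16 lay far from those at E30. FASN had −0.45 and −0.89 at these stages and 6.39 at E30, ELOVL6 −1.66 and −0.86 and then 5.29, and DIO3 1.63 and 1.83 and then −6.71 (n = 4 livers with a value).

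**Figure D5:**
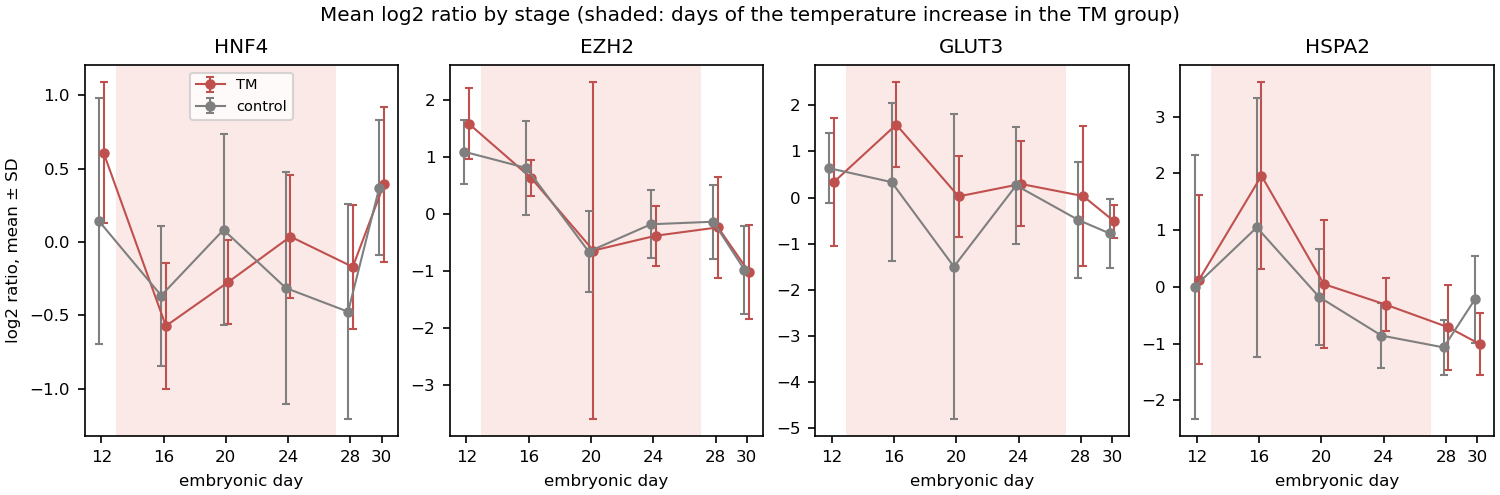
Mean log2 ratio ± SD of HNF4, EZH2, GLUT3 and HSPA2 by embryonic day in TM (red) and control (grey) livers, the shading marking the days of the temperature increase. In TM livers HNF4 is lowest at E16 (−0.57) and GLUT3 and HSPA2 are highest there (1.58 and 1.96), with error bars of the TM and control groups that overlap at E16 for all 4 genes.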

How the data were processed

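The authors exported Ct from the Fluidigm instrument (EvaGreen dye, after a pre-amplification). They also deposited relative expression ratios, 2 to the power of minus ∆∆Ct, a fold against the geometric mean Ct of HPRT1, luciferase, STAB1 and USP9X in the liver and against the mean ∆Ct that the gene had in the trial. Recomputing them from the Ct gave the deposited ratios within 1.5e-06 on the log2 scale. The submitters' processing notes name R 3.6.2. In the 16 livers 68 values with a Ct had been left blank by the authors, and they stayed blank. 1 column of Ct-like values had no sample name and was left out.

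The log2 of each ratio was taken, with no pseudocount. E16 and E12 TM livers were compared by limma (lmFit, eBayes), with the Benjamini-Hochberg correction over 86 genes and a gene called at an adjusted p under 0.05, and by exact two-sided permutation tests. The TM change was set against the control change by an interaction contrast, for genes with at least 6 livers in each group, or 4 in the E16 control group. Without E12 replicates 2 and 8 at least 4 livers at E12 were asked for.

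The genes named are, per list, the 3 with the largest absolute difference, all thyroid hormone and fatty acid synthesis genes, the 3 with the smallest interaction p and the reference genes. A gene past the adjusted p with and without replicates 2 and 8 would have been named too, and there was none. Genes outside this rule were named after their values were seen. Members and lists were chosen with earlier results of these data known. The alternatives tried are given in the closing section. Those without replicates 2 and 8 under other scalings were added after seeing the data. So was the interaction without replicates 2 and 8 and E16 control replicate 7 together. The tests were checked on simulated data. The tools were limma 3.58.1 in R 4.3.3, and scipy 1.17.1, pandas 2.3.3, numpy 2.4.6 and matplotlib 3.10.9 in Python 3.11.15.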

Additional observations from a re-analysis of the deposited data

Results flagged for a closer look

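In 3 of 116 groups of values checked, 1 liver lay far from the others of its stage, and about 1 group in 20 is picked out so by chance. ATG3 in E12 TM replicate 2 had a log2 ratio of 1.69, and the next highest of the 7 livers had 0.60. STAB1 in E12 TM replicate 8 had a Ct of 20.4 cycles, and the next had 19.0. Replicates 2 and 8 are the livers with the late luciferase. HK2 in E16 TM replicate 7 had a log2 ratio of −7.83, and the next lowest had −1.40.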

How the results depend on the processing

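HNF4 was lower at E16 in all 29 alternatives run on it, with limma's adjusted p under 0.05 in 16 of them (range 0.00993 to 0.498). The number of genes called, 1, became 0 without E12 replicates 2 and 8, with every Ct kept, with the 3 endogenous reference genes, with luciferase as the only reference, with each liver centred on the panel mean, and with the endogenous genes or the panel mean when replicates 2 and 8 were also left out. Leaving out 1 liver at a time gave 0 to 2 called genes, HNF4 being lost without E12 replicate 1, 3 or 4 or E16 replicate 1, 5 or 7. The test of the study's methods is Student or Wilcoxon, chosen by normality and equal variance, and it was run on the ratios without the log. It gave 4 genes at an unadjusted p under 0.05 and 1 after correction. The share of genes lower at E16 was 68.6% with all livers, 49.4% without replicates 2 and 8 and 51.2% centred on the panel (which itself evens the shares). It was 58.1% with the endogenous genes (themselves later at E16) and 96.5% with luciferase only, where the median difference was −1.30. The luciferase Ct differed by 1.11 cycles the other way, later at E16, without replicates 2 and 8. The alternatives with the endogenous genes or with luciferase only also put back the values left blank by the authors, so they changed more than the reference. The interaction gave 1 gene, NCOR, with the endogenous genes and 0 in the other 5 alternatives.

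With luciferase only, the sign turned for ACAA2 (−0.46), ACAT1 (−0.68), ALB (−0.82), ALDH3A2 (−0.72), APOB (−1.03), CEPT1 (−0.91), CYP2C (−0.79), DIO1 (−0.90), DIO3 (−0.90), ELOVL6 (−0.20), GLUT2 (−0.94), GPAT1 (−0.66), HSF1 (−0.85), LXRA (−0.49), ME (−0.75), THRB (−0.42) and VLDLR (−0.40). Without replicates 2 and 8 it turned for ACC (0.10), CPT1 (0.11), NCOR (0.077), PPARA (0.013) and WIPI1 (0.037), and also with the panel mean for ACC (0.080), CPT1 (0.093), NCOR (0.13) and WIPI1 (0.016) or with the endogenous genes for ACC (0.024), CPT1 (0.037), IL18 (0.18) and NCOR (0.17). In all livers it turned with the endogenous genes for ACC (0.16), CPT1 (0.021) and NCOR (0.20), with the panel mean for ACC (0.22), CPT1 (0.15), NCOR (0.22) and PPARA (0.00093), and with all Ct for APOB (−0.030). With 1 liver left out, ACC ran from −0.25 to 0.063, CPT1 from −0.13 to 0.11, DIO1 from −0.067 to 0.34, DIO3 from −0.0018 to 0.40, HK2 from −1.05 to 0.40 and NCOR from −0.12 to 0.077. None of these genes was called with all livers, and the cause was not tested. Same-numbered livers of the stages were not paired (correlations of −0.239 to 0.278, over 0.1 in 3 of 8 numbers), and the fit with the replicate number as a block gave 1 called gene.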
